A study of Rattus norvegicus with 8 samples.

Results

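Ion channel genes were followed across 4 groups of arrays of the C6 line, a rat glioma line with glial features. The set held every probe set with a single gene symbol that starts with Kcn, Scn, Cacn, Clcn, Hcn, Trpc, Trpm or Trpv: 138 of the 8799 probe sets on the array, for 89 of the 4737 genes named. They comprised 54 potassium channel genes, 13 sodium channel genes, 14 calcium channel genes, 5 chloride channel genes of the Clcn family, 2 Trpc genes and Trpv1. No probe set carried an Hcn or a Trpm symbol. A probe set is a group of short probes for one transcript, and 35 of the genes had more than 1.

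Ion channels are membrane pores that open to voltage, ligands, cell volume or other signals and let selected ions cross. Each large family has pore-forming alpha subunits and smaller auxiliary subunits that set gating, trafficking and surface number. In glial cells, inwardly rectifying potassium channels hold the resting potential and clear extracellular potassium, and in migrating glioma cells potassium and chloride channels are known for their part in changes of cell volume, and calcium entry for its part in adhesion and contraction.

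The 8 samples were total RNA of the C6 rat glioma line, and the labels give migration as their subject. They formed 4 groups of 2 arrays by title: C6slow, C6fast, C6SPGFPslow and C6SPGFPfast, here called slow and fast cells of the C6 set and of the C6SPGFP set. The meaning of C6SPGFP, the way slow and fast cells were obtained and the number of clones or cultures are stated in no label, and no group is named as an untreated control. The p-values therefore measure the spread between these arrays, which may be technical, and 2 arrays per group limit the precision of every value.

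The deposited signal had a 2% trimmed mean of 100.1 to 105.8 on 7 arrays and of 500.5 on C6SPGFP fast replicate 1, so arrays were quantile normalised, and all signals below are normalised ones. Replicates of a group correlated across probe sets with Pearson's r of 0.977 to 0.984 on the log2 scale. The 3'/5' signal ratio of the Gapdh control, a measure of RNA integrity, was 0.967 to 1.05 over the 8 arrays. Vimentin (Vim), the filament protein of C6 cells, was at 2881 ± 284 (mean ± SD of the 2 arrays) for C6slow, 2658 ± 91.3 for C6fast, 3179 ± 109 for C6SPGFPslow and 3716 ± 162 for C6SPGFPfast. S100b, a calcium-binding protein of glia, was at 408 ± 18.4, 65.9 ± 12.8, 1226 ± 6.34 and 1261 ± 19.4 in the same order on S53527mRNA_s_at, lowest on the C6 fast arrays. On rc_AI146214_at it was at 12.6 ± 1.58, 10.3 ± 4.10, 20.4 ± 1.48 and 19.2 ± 1.03, and slow and fast C6 arrays overlapped. Nestin (Nes) was at 933 ± 3.48, 235 ± 63.6, 992 ± 107 and 771 ± 76.6 on M34384_at. On rc_AI030685_s_at it was at 24.1 ± 2.32, 2.44 ± 0.221, 19.3 ± 2.03 and 20.1 ± 5.49. Cspg4 was at 209 ± 9.88, 183 ± 30.1, 224 ± 6.35 and 198 ± 1.64, so not every glial marker fell in C6 fast cells. No probe set was named for Gfap.

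Most channel genes had low signal. The median of all normalised signals was 38.3, and 97 of the 138 channel probe sets (70.3%) lay under it on each of the 8 arrays, against 41.1% of the 8740 probe sets that are not controls. For 55 of the 89 genes this held for every probe set, with a highest signal of 34.9 among them. Under the 25th percentile, a signal of 7.56, on all arrays lay 37 channel probe sets (26.8%, against 13.8% of all), which took in every probe set of 16 genes. Only 12 channel probe sets (8.7%, against 41.3% of all) were at or above the median on all 8 arrays. Detection calls are not used here, so low signal does not show that a transcript was absent, and the signals of different probe sets are not compared as levels.

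**Figure D1:**
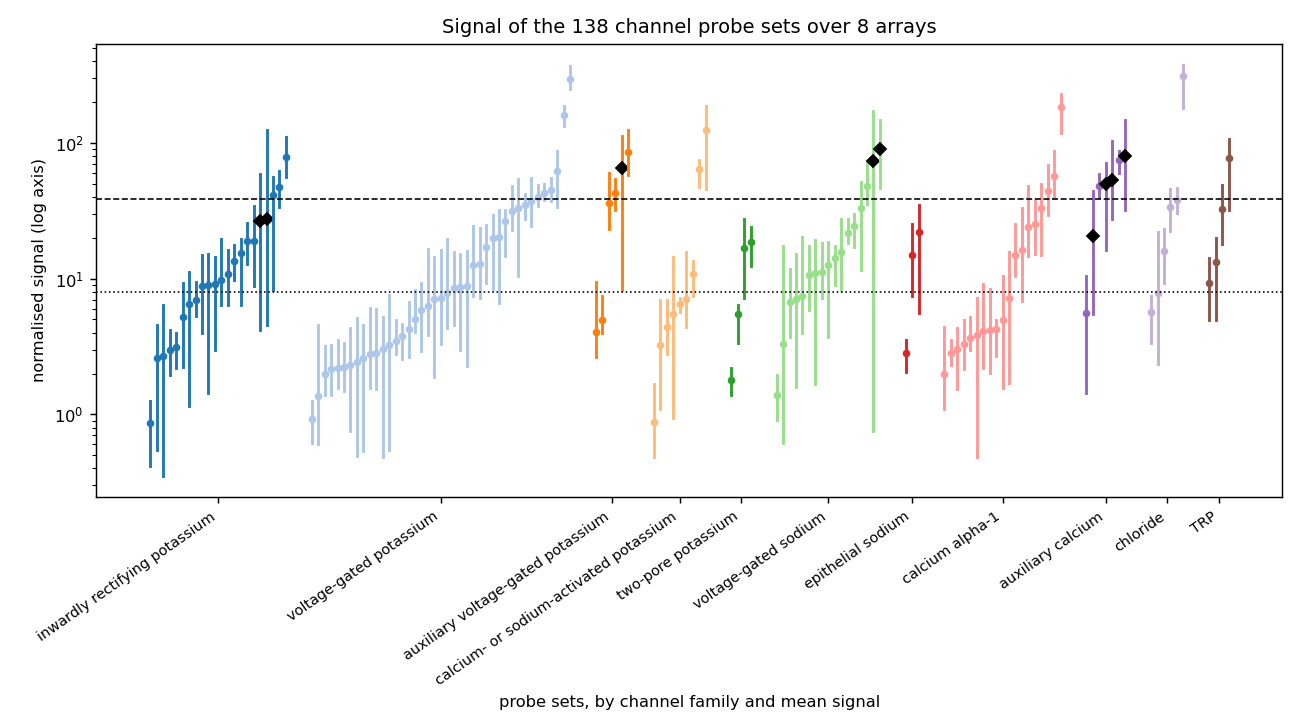
Normalised signal (log axis) of the 138 channel probe sets, ordered within each family by mean signal; bars span the lowest to the highest of 8 arrays and points mark the mean, with black diamonds for the 9 probe sets called in at least 1 comparison. The dashed line is the median of all probe sets (38.3) and the dotted line the filter of 8; most channel probe sets lie under the dashed line.

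The comparisons used limma on log2 of the signal plus 8, and p-values were adjusted by Benjamini and Hochberg's method, at 5%, across the 6684 probe sets with a mean signal of at least 8. This filter left 78 channel probe sets of 60 genes, and 60 probe sets were not tested. A probe set that passed the filter through the group where it was high had to differ between groups, so the 78 are not a sample of all channels. A called probe set is one with an adjusted p under 0.05, and folds are those of signal plus 8. The 8 pulls changes of low signals toward 0, so the size of a change against a group of low signal depends on it. Such changes of channel probe sets, where called, are also given with 1 and 32 in place of the 8. In bulk RNA, a change in the share of cells that express a gene and a change in RNA per cell cannot be told apart.

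Of the channel genes, 6 (on 9 of 78 tested probe sets) were called in at least 1 of 5 comparisons. The share of all probe sets called in at least 1 was not computed. It is at least 15.6%, the share called between fast cells alone (1042 of 6684). The share of channel probe sets lay under this bound, a difference that was not tested. The shares in each comparison are given below. The potassium channel beta subunit Kcnab1 and the calcium channel beta subunit Cacnb2 were low in C6 fast cells, where the other beta subunit Cacnb3 was high. The glial potassium channel Kcnj10 was high in C6SPGFP slow cells. The sodium channel Scn7a, and in fast cells the calcium channel subunit Cacna2d1, were higher in C6SPGFP than in C6. Of the 6 genes, 4 code for auxiliary or regulatory subunits, and no pore-forming voltage-gated potassium, calcium, chloride or TRP channel was called. By tested probe sets, the calls were 4 of 6 for auxiliary calcium and 1 of 4 for auxiliary voltage-gated potassium subunits. They were 2 of 14 for inward rectifiers, 2 of 12 for voltage-gated sodium channels, 0 of 19 for voltage-gated potassium alpha and 0 of 8 for calcium alpha-1 subunits. The auxiliary calcium calls were of Cacnb3, Cacna2d1 and Cacnb2, the last counted on each of its 2 probe sets. The classes are small, and over all probe sets the share called is at least 15.6%. A difference between these classes was not tested.

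In fast against slow C6 cells, 5 of 78 channel probe sets were called (6.41%, against 6.66% of all), 1 higher (2.69% of all) and 4 lower (3.96% of all). In C6SPGFP cells it was 1 of 78, lower in fast cells (1.28%, against 1.39% of all in either direction and 0.329% lower). The fast minus slow change differed between the sets for 3 of 78 (3.85%, against 3.82% of all), 2 higher and 1 lower (2.71% and 1.11% of all). Between the sets, 4 of 78 were called in slow cells, all higher in C6SPGFP (5.13%, against 6.34% of all in either direction and 3.29% higher), and 6 of 78 in fast cells, 5 higher and 1 lower (7.69%, against 15.6% of all, 8.29% higher and 7.3% lower). The share of channels called was thus near the background in 4 of these comparisons and under it between fast cells, a difference that was not tested. The median log2 change of the 78 was 0.03 in C6 (0.01 over all probe sets tested), -0.0046 in C6SPGFP (-0.02), 0.0037 on the difference (-0.04), 0.07 between slow cells (0.0074) and -8e-04 between fast cells (-0.03). With the deposited scaling, which leaves C6SPGFP fast replicate 1 on its own scale, 2 channel probe sets were called between fast cells (Scn7a rc_AA925248_at and Kcnab1) and 0 in the 4 other comparisons. An unadjusted p under 0.05 was reached by 12 of the 78 in C6 (15.4%, against 19.4% of all), 4 in C6SPGFP (5.13%, against 9.69%), 11 on the difference (14.1%, against 15.4%), 12 between slow cells (15.4%, against 21%) and 14 between fast cells (17.9%, against 28.9%). None of these shares was above that of all probe sets.

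**Figure D2:**
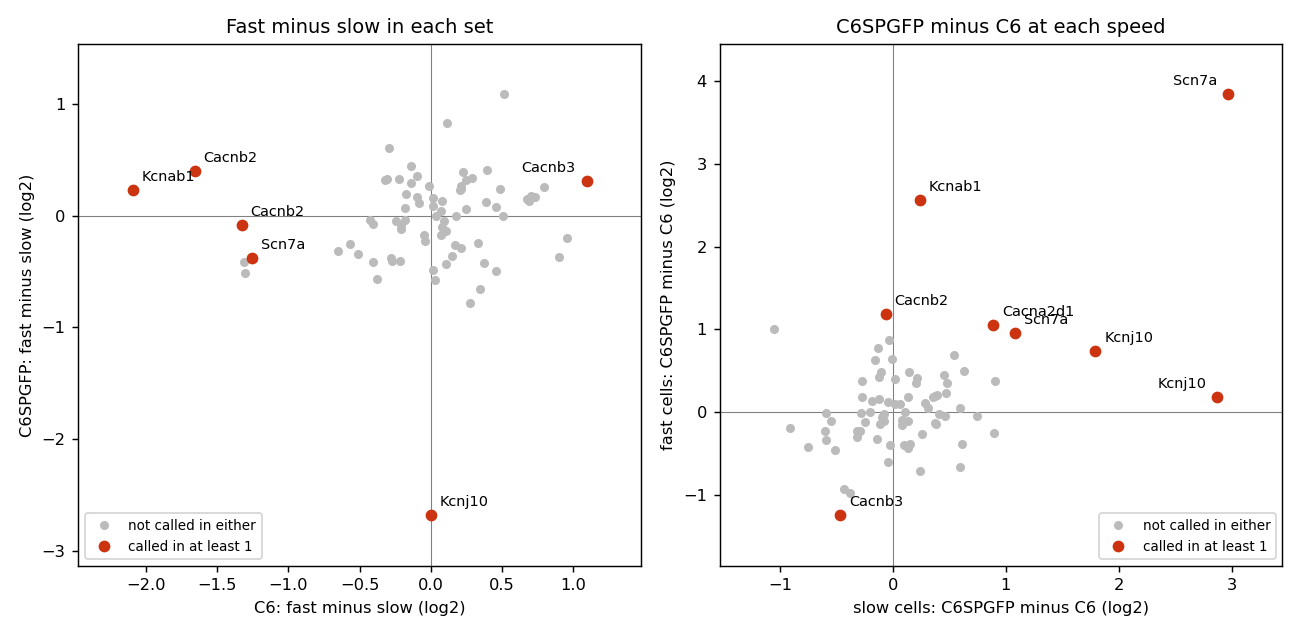
Log2 changes of the 78 tested channel probe sets, fast minus slow in C6 (x) against C6SPGFP (y) on the left, and C6SPGFP minus C6 in slow (x) against fast cells (y) on the right; red points were called on at least 1 axis. The genes called in C6 (Kcnab1, Cacnb2, Cacnb3, Scn7a) are not called in C6SPGFP, where Kcnj10 alone is called, and Scn7a lies highest on the right.

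The regions upstream of 4 of the called genes are shown: Kcnab1, Cacnb2 and Kcnj10, whose fast minus slow change differed between the sets, and Scn7a, which had the highest called change. They were chosen after these values were seen. Each is the 250 bases before a RefSeq transcript start in GRCr8, 5′ to 3′ on the gene's strand, with Cacnb2 at its 2 annotated starts. The start in use in C6 cells was not measured. Capitals mark matches on either strand to 4 motifs. TATAAA is the core promoter box near the start of some genes. CCAAT is the site of the factor NF-Y. GGGCGG is the GC box of Sp1. ACAAAG is a core that Sox factors bind.
Kcnab1, chr2:151614301-151614550 (+): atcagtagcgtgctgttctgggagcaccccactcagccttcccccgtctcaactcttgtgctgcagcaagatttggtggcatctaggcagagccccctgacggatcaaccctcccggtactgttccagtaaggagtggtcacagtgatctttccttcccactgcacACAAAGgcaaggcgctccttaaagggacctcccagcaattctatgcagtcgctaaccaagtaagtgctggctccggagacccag
Cacnb2 window 1, chr17:82472965-82473214 (+): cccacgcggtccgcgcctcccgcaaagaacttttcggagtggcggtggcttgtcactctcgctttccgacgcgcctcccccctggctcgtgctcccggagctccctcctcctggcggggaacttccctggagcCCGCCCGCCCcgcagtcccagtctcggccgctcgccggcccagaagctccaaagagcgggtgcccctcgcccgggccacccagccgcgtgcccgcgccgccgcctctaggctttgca
Cacnb2 window 2, chr17:82596542-82596791 (+): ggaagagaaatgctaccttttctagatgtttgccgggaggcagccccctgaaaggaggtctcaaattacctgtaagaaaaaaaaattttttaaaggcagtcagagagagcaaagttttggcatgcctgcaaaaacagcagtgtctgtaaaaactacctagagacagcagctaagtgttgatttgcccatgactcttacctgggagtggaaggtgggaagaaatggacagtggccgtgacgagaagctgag
Kcnj10, chr13:87334260-87334509 (+): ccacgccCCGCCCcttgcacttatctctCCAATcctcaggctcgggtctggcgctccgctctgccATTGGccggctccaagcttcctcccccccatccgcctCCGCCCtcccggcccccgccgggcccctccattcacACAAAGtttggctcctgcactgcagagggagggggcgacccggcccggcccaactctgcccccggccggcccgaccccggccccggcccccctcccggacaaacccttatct
Scn7a, chr3:71846285-71846534 (-): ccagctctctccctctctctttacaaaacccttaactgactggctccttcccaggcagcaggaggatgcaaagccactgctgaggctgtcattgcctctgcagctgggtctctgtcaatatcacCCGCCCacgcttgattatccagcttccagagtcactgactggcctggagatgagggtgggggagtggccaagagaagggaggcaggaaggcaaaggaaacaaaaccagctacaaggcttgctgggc
Kcnab1 had a single match, to ACAAAG, which also stood once before Kcnj10 and in 16.3% of the 33469 windows of this length in the table. Before Kcnj10 there were also 2 CCAAT and 2 GC box matches, and 1 GC box match before Scn7a. The first Cacnb2 window held 2 overlapping GC box matches and the second none of the 4 motifs. TATAAA was in none of the 5 windows and in 12.9% of all, CCAAT was in 34% of all and GGGCGG in 30.5%. The first Cacnb2 window and the Kcnj10 window were rich in G and C (73.2% and 72.4%, with 30 and 20 CG pairs), against a median of 51.2% and 5 CG pairs over all windows, while the Kcnab1 and Scn7a windows had 56% each and 7 and 2 CG pairs.

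Kcnj10 codes for the inwardly rectifying potassium channel of astrocytes and oligodendrocytes that buffers potassium. Its probe set U27558_at had signals of 5.8 and 4.5 on the C6 slow arrays, 4.8 and 5.5 on the C6 fast arrays, 124 and 61.9 on the C6SPGFP slow arrays, and 8.1 and 5.9 on the C6SPGFP fast arrays. The C6SPGFP slow arrays stood above the other 6, which lay at 4.53 to 8.05, around the 25th percentile of all signals. U27558_at passed the filter of 8 only through the C6SPGFP slow arrays, so a difference from them was given in advance. With no filter on signal its calls were kept (limma adjusted p = 0.0113 within C6SPGFP, 0.0049 between slow cells and 0.0218 on the difference). The signal was lower in fast than in slow C6SPGFP cells (log2 change -2.68 ± 0.32, SE; limma adjusted p = 0.00545) and higher in C6SPGFP slow than in C6 slow cells (2.87 ± 0.32, adjusted p = 0.00218). With 1 added these changes were -3.49 and 3.85, and with 32 they were -1.63 and 1.70, all called. In C6 the fast minus slow change was 0.00 (95% interval -0.72 to 0.73), and the difference of the changes was -2.69 ± 0.45 (adjusted p = 0.013; -3.49 with 1 added and -1.64 with 32).

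The other Kcnj10 probe set, X83585cds_s_at, had signals of 4.2 and 17.9 on the C6 slow, 13.0 and 13.9 on the C6 fast, 58.6 and 48.9 on the C6SPGFP slow and 27.2 and 28.4 on the C6SPGFP fast arrays. It too was highest on the C6SPGFP slow arrays, with no overlap with any other group, and was called between slow cells (1.79 ± 0.34, adjusted p = 0.018; 2.46 with 1 added and 1.01 with 32). Its change from slow to fast C6SPGFP cells did not pass (-0.78 ± 0.34, adjusted p = 0.511). On both probe sets the C6SPGFP fast arrays lay above every C6 array, with no call between fast cells (0.18, adjusted p = 0.766, and 0.74, adjusted p = 0.192). The U27558_at call within C6SPGFP ended without C6SPGFP fast replicate 2 (adjusted p = 0.0718). That on the difference ended without C6 fast replicate 2 (0.0503), C6SPGFP fast replicate 1 (0.0538) or fast replicate 2 (0.0599). The X83585cds_s_at call ended without C6 slow replicate 1 (0.0557), C6SPGFP slow replicate 1 (0.118) or slow replicate 2 (0.0978), and when the slow groups alone were fitted (0.0685).

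The other inward rectifiers gave no call. Of 15 Kcnj genes, 12 had low signal on all arrays, given here and below as the range over all arrays and probe sets of the gene. They were Kcnj2 (0.419 to 1.25), Kcnj3 (2.23 to 14.4), Kcnj4 (5.26 to 19.5), Kcnj5 (6.36 to 19.7), Kcnj6 (2.19 to 3.95) and Kcnj8 (12.9 to 25.9), and Kcnj9 (1.96 to 4.2), Kcnj12 (1.15 to 11.2), Kcnj13 (0.35 to 6.39), Kcnj14 (1.44 to 15.1), Kcnj15 (8.84 to 34.3) and Kcnj16 (0.55 to 16.3). They include the strong rectifier Kcnj2, the G-protein-gated channels Kcnj3, Kcnj5, Kcnj6 and Kcnj9, and Kcnj16, a partner of Kcnj10 in glia, with signals of 6.44 to 16.3 on X83581cds_at and 0.55 to 4.53 on rc_AA892312_at. Kcnj2, Kcnj6, Kcnj9 and Kcnj13 lay under the 25th percentile on every array. Above the median on some arrays were also Kcnj1, the inward rectifier of the kidney known as ROMK, and Kcnj11, the pore of the ATP-sensitive potassium channel. Kcnj11 was at 8.26 to 56.0 and 9.8 to 17.8 on its 2 probe sets. Kcnj1 was at 33.9 to 62.1 and 4 to 14.8 on 2 of its 3 probe sets, and on the third, S78154_at, had signals of 76.5 and 111 for C6slow, 77.2 and 89.0 for C6fast, 56.5 and 65.3 for C6SPGFPslow and 75 and 78.0 for C6SPGFPfast, and the groups overlapped but for the C6SPGFP slow arrays, which lay lowest (adjusted p = 0.205 against C6 slow cells). Over the 12 tested Kcnj probe sets with no call, changes within a set or between sets ran from -0.91 to 0.83 (log2).

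Kcnab1 codes for a beta subunit that binds Kv1 channels inside the cell and speeds their inactivation. Its probe set had signals of 76.2 and 60.2 on the C6 slow, 8.3 and 11.4 on the C6 fast, 106 and 62.3 on the C6SPGFP slow and 112 and 84.0 on the C6SPGFP fast arrays. The C6 fast arrays lay under the other 6, which were at 60.2 to 112. Kcnab1 fell from slow to fast C6 cells (log2 change -2.09 ± 0.28, adjusted p = 0.00257) and was higher in C6SPGFP fast than in C6 fast cells (2.57 ± 0.28, adjusted p = 0.00059). With 1 added these changes were -2.68 and 3.19, and with 32 they were -1.26 and 1.63, all called. In C6SPGFP the fast minus slow change was 0.23 (95% interval -0.41 to 0.88), and the difference of the changes was 2.33 ± 0.40 (adjusted p = 0.0146; 2.94 with 1 added and 1.44 with 32). The calls in C6 and between fast cells held in all 8 runs that left out an array. The call on the difference ended without C6 slow replicate 1 (0.0546), C6 fast replicate 1 (0.0508), C6SPGFP slow replicate 2 (0.0543) or C6SPGFP fast replicate 1 (0.0789).

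Most of the Kv1 alpha subunits, the family that Kcnab1 binds, had low signals. Kcna2 and Kcna3 lay under the 25th percentile and Kcna4, Kcna5 and Kcna6 under the median on all arrays. Kcna1 had signals of 33.6 to 87.0 on X12589cds_s_at and 9.2 to 24.8 on M26161_at, and neither was called. Kcnab2, another Kv1 beta subunit, had signals of 61.2 and 81.1 for C6slow, 121 and 125 for C6fast, 80.0 and 57.7 for C6SPGFPslow and 94.1 and 63.9 for C6SPGFPfast on rc_H33656_at, highest on the C6 fast arrays. Its change in C6 was 0.74 (adjusted p = 0.141), and 0.90 on X76724_at (adjusted p = 0.0921), opposite in sign to that of Kcnab1 but not past the threshold. Kcnab3 (4 to 7.4) lay under the 25th percentile on all arrays. Kcne1, a small subunit that slows the cardiac channel Kcnq1, had signals of 32.1 to 54.0 on D10709exon_s_at and 2.65 to 9.38 on M22412_at, and Kcnq1 itself was at 1.4 to 3.2.

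Of 27 voltage-gated potassium alpha subunit genes, 18 had low signal on all arrays. Of the Kv1 to Kv4 families these were Kcna2 (0.75 to 4.33), Kcna3 (2.79 to 4.94), Kcna4 (0.488 to 16.5), Kcna5 (6.56 to 31.8), Kcna6 (0.613 to 19.5) and Kcnb2 (1.56 to 6.05), with Kcnc1 (2.29 to 16.1), Kcnc2 (0.494 to 7.56), Kcnd2 (1.56 to 15.8) and Kcnd3 (0.538 to 23.5). Of the ether-a-go-go and KCNQ families they were Kcnh1 (2.91 to 9.23), Kcnh7 (8.38 to 29.5) and Kcnq1 (1.38 to 3.2); Kcnh1 (EAG1) is studied in many tumours. The modifier subunits, which are silent alone, were all low: Kcnf1 (2.98 to 15.2), Kcng1 (14.8 to 32.1), Kcns1 (2.54 to 4.65), Kcns3 (3.3 to 16.1) and Kcnv1 (1.88 to 14.3). The 9 others were Kcna1, Kcnc4, Kcnh2, Kcnh3, Kcnh4, Kcnh5, Kcnh6, Kcnh8 and Kcnq3, 6 of them ether-a-go-go (Kcnh) channels. Their ranges were Kcnc4 (23 to 48.2), Kcnh4 (27.5 to 42), Kcnh5 (34.1 to 49.3), Kcnh6 (24.4 to 55.5), Kcnh8 (4.05 to 55) and Kcnq3 (1.48 to 49.4), the last 2 with a second probe set that was low on all arrays. Kcnh3 (AJ007627_at) had signals of 328 and 371 for C6slow, 251 and 362 for C6fast, 274 and 283 for C6SPGFPslow and 248 and 264 for C6SPGFPfast. Kcnh2, the ERG channel of cardiac repolarisation, had 133 and 182, 148 and 181, 158 and 185, and 146 and 156 in the same order on U75210_s_at. Fast and slow C6 cells overlapped for both. In Kcnh3 the C6SPGFP slow arrays lay under the C6 slow arrays (-0.32, adjusted p = 0.401). In Kcnh3 and in Kcnh2 the C6SPGFP fast arrays lay under the C6SPGFP slow arrays (for Kcnh2 -0.17, adjusted p = 0.859). Neither gene gave a call. Their other probe sets had lower signals, at 7.4 to 24.4 for Kcnh2 and 10.4 to 54.3 for Kcnh3. On the latter, AF073892_s_at, the C6 fast arrays lay lowest (15.6 and 10.4, against 45.3 and 42.1 in C6 slow cells; change -1.31, adjusted p = 0.0756), which AJ007627_at did not show. Over the 19 tested probe sets of these genes the changes ran from -1.31 to 0.90.

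Among calcium- and sodium-activated potassium channels, Kcnma1, the pore of the BK channel that is abundant in human gliomas, had low signal on all arrays on each of 4 probe sets, with signals of 0.938 to 15.7. Its beta subunit Kcnmb1 had signals of 99.5 and 129 for C6slow, 123 and 188 for C6fast, 169 and 45.6 for C6SPGFPslow and 142 and 104 for C6SPGFPfast on AF020712_at, with full overlap between groups. The other Kcnmb1 probe set was at 7.4 to 13.5. The small-conductance channel Kcnn1 was at 47.1 to 74.5, Kcnn3 at 0.49 to 1.7 and the sodium-activated Kcnt1 at 2.8 to 6.9. The leak channels of the Kcnk family, Kcnk1 (12.3 to 24), Kcnk3 (1.4 to 6.39) and Kcnk5 (7.23 to 27.4), were low on all arrays. Kcnk5 had 7.2 and 7.4 in C6 slow against 16.9 and 27.4 in C6 fast cells (change 0.96, adjusted p = 0.0714).

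Scn7a codes for Nax, an atypical sodium channel of Schwann cells and other glia that senses extracellular sodium rather than voltage. On rc_AA925248_at its signals were 16.1 and 10.7 on the C6 slow, 0.75 and 1.1 on the C6 fast, 171 and 145 on the C6SPGFP slow and 108 and 132 on the C6SPGFP fast arrays. Every C6SPGFP array lay above every C6 array. The signal was higher in C6SPGFP than in C6 slow cells (2.97 ± 0.23, adjusted p = 0.000349) and in C6SPGFP than in C6 fast cells (3.84 ± 0.23, adjusted p = 1.88e-05), and both calls held in all 8 runs without an array. Their size rests on the value added: it was 3.49 and 5.99 with 1, and 2.07 and 2.2 with 32, all called. Within C6 it fell in fast cells (-1.25 ± 0.23, adjusted p = 0.0126), from a low signal to one of about 1. The change was -2.90 with 1 added (adjusted p = 0.000868) and -0.46 with 32, and this call ended without C6 slow replicate 1 (0.0683), C6 fast replicate 1 (0.0508) or fast replicate 2 (0.0513), with a pseudocount of 32 (0.128) and when the C6 groups alone were fitted (0.0772).

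The other Scn7a probe set, S75991_at, had signals of 48.1 and 79.8, 46.3 and 54.1, 133 and 148, and 106 and 102 in the same order, and again no C6SPGFP array overlapped a C6 array. The differences were smaller, at 1.08 ± 0.24 in slow (adjusted p = 0.0349) and 0.95 ± 0.24 in fast cells (adjusted p = 0.0305), and there was no call within C6 (-0.27, adjusted p = 0.621). The slow call ended in 5 of 8 runs without an array, those without C6 slow replicate 1 (0.137), either C6SPGFP slow array (0.132 and 0.205) or either C6SPGFP fast array (0.0548 and 0.0669). It also ended with no filter on signal (0.0583) and with the slow groups alone (0.0925). The fast call ended in 6 of 8, without any of the C6 fast (0.131 and 0.0712), C6SPGFP slow (0.0551 and 0.0547) or C6SPGFP fast arrays (0.115 and 0.126).

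Most of the classical voltage-gated sodium channels had low signals. Of 10 Scn genes, 7 were low on all arrays. They were the beta subunit Scn2b (0.613 to 17.4), the channels of central neurons Scn2a (1.69 to 19.3), Scn3a (0.913 to 30.1) and Scn8a (3.69 to 27.4), and those of sensory neurons Scn9a (3.71 to 18.6), Scn10a (1.6 to 15.2) and Scn11a (5.86 to 17.5). Scn1a, of central neurons, was at 35.5 to 73.6, and Scn4a, of skeletal muscle, reached 51.3 on M26643_g_at but lay at 8.25 to 27.5 on its other probe sets. None of the 10 tested probe sets of these genes was called, with changes from -1.30 (Scn2a, C6) to 1.09 (Scn4a M26643_g_at, C6SPGFP). For Scn2a the signals were 15.8 and 19.3 in C6 slow and 1.7 and 3.1 in C6 fast cells (adjusted p = 0.071). The epithelial sodium channel subunits Scnn1a (7.39 to 25.4), Scnn1b (2.05 to 3.53) and Scnn1g (5.61 to 34.9) were low on all arrays.

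**Figure D3:**
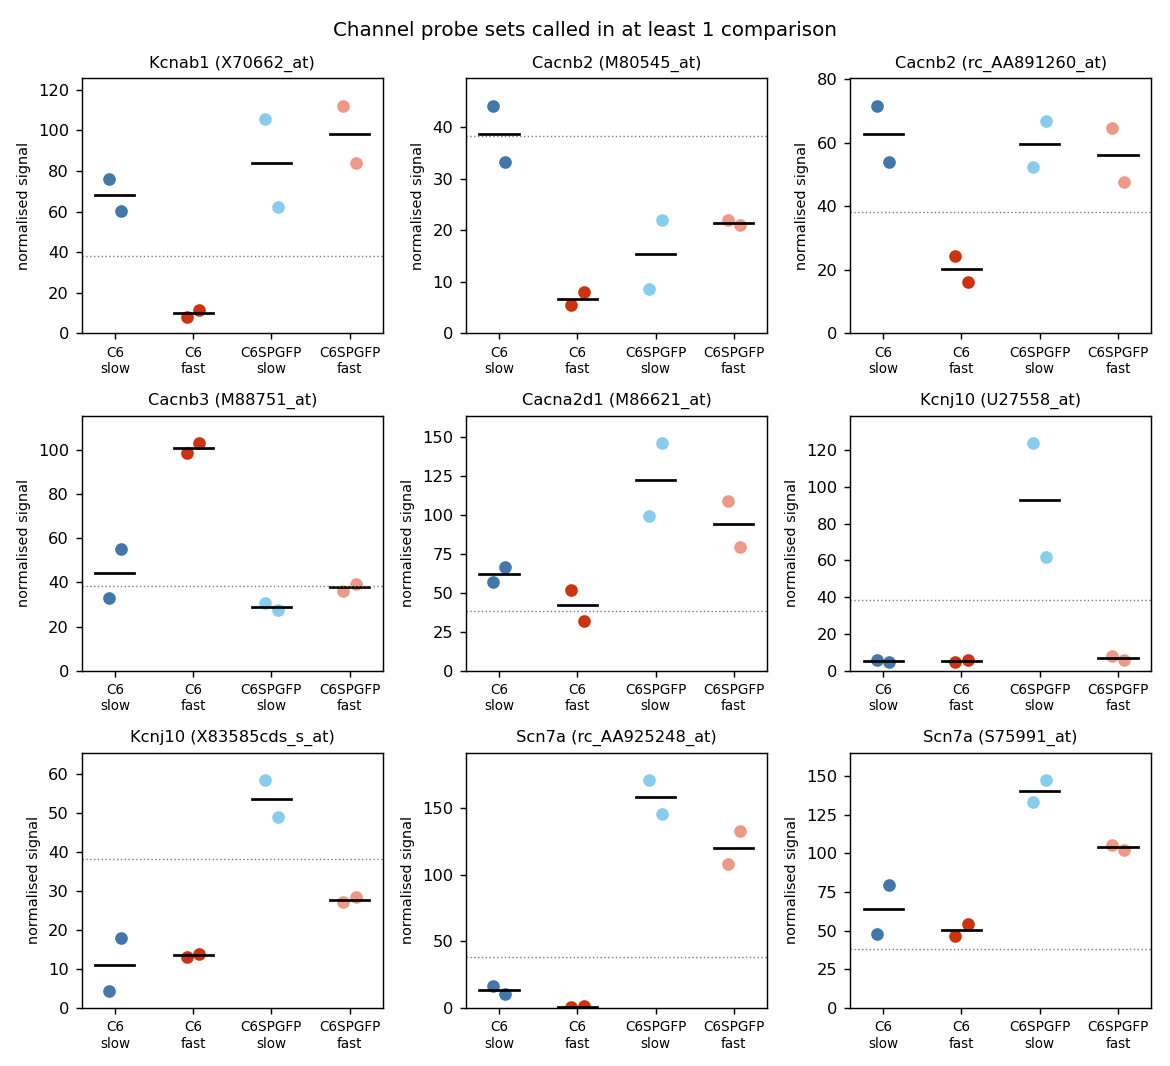
Normalised signal (linear axes from 0) of the 9 channel probe sets called in at least 1 comparison, with 2 arrays per group as points and the group mean as a bar; the dotted line is the median of all probe sets (38.3). Kcnab1 and Cacnb2 are lowest and Cacnb3 highest in C6 fast cells, Kcnj10 is highest in C6SPGFP slow cells, and Scn7a is higher on every C6SPGFP array than on any C6 array.

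Voltage-gated calcium channels join a pore-forming alpha-1 subunit with a beta subunit in the cytoplasm and an alpha-2-delta subunit outside, which carry it to the surface and tune its gating. Cacnb2 codes for the beta subunit best known from the heart. On M80545_at its signals were 44.1 and 33.2 on the C6 slow, 5.5 and 8.0 on the C6 fast, 8.7 and 22.0 on the C6SPGFP slow and 22.0 and 21.0 on the C6SPGFP fast arrays. On rc_AA891260_at they were 71.6 and 53.9, 24.3 and 16.1, 52.3 and 66.7, and 64.5 and 47.6. On both, the C6 fast arrays lay under all others, while C6 slow cells stood above C6SPGFP slow cells on the former only. Cacnb2 fell in C6 fast cells on both probe sets (-1.66 ± 0.31, adjusted p = 0.0147, and -1.33 ± 0.26, adjusted p = 0.0168). With 1 added the changes were -2.36 and -1.6, and with 32 they were -0.86 and -0.86, all called.

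Between fast cells, rc_AA891260_at was higher in C6SPGFP (1.18 ± 0.26, adjusted p = 0.0165) and M80545_at was at 1.01 ± 0.31 (adjusted p = 0.0644). With 1 added the change of rc_AA891260_at was 1.44 and with 32 it was 0.75, both called. The difference of the changes passed on M80545_at (2.06 ± 0.44, adjusted p = 0.0403; 2.96 with 1 added and 1.05 with 32) and not on rc_AA891260_at (1.25 ± 0.36, adjusted p = 0.128), and the former call held in 1 of 8 runs without an array (that without C6SPGFP slow replicate 2; adjusted p from 0.0593 to 0.134 in the 7 others) and ended with no filter (0.0689). The calls in C6 ended without C6 slow replicate 1 (0.0901 and 0.0996) or C6 fast replicate 2 (0.0556 and 0.104) on both, and without C6 fast replicate 1 on M80545_at (0.0782). That of rc_AA891260_at also ended when the C6 groups alone were fitted (0.0655). Its call between fast cells ended without C6 fast replicate 2 (0.0848) or C6SPGFP fast replicate 1 (0.106).

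Cacnb3, a beta subunit of neuronal and smooth muscle channels, had signals of 33.1 and 55.3 for C6slow, 98.8 and 103 for C6fast, 30.4 and 27.5 for C6SPGFPslow and 36.3 and 39.5 for C6SPGFPfast. The C6 fast arrays lay above the other 6. Cacnb3 was 2.14-fold higher in fast than in slow C6 cells (1.10 ± 0.24, adjusted p = 0.0305) and 2.38-fold lower in C6SPGFP fast than in C6 fast cells (-1.25 ± 0.24, adjusted p = 0.00945), so in C6 it moved against Cacnb2. The C6 call held in 2 of 8 runs without an array (0.0580 to 0.140 in the 6 others, which left out C6 slow replicate 1, either C6 fast array, either C6SPGFP slow array or C6SPGFP fast replicate 2) and ended with no filter (0.0616) and with the C6 groups alone (0.119). The call between fast cells ended without C6 fast replicate 2 (0.0504) or C6SPGFP fast replicate 2 (0.0520).

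Cacna2d1 codes for the alpha-2-delta subunit that binds gabapentin and thrombospondins. Its signals were 57.0 and 66.8 for C6slow, 52.0 and 32.1 for C6fast, 99.3 and 146 for C6SPGFPslow and 109 and 79.4 for C6SPGFPfast. Every C6SPGFP array lay above every C6 array, and the difference passed in fast cells (1.05 ± 0.28, adjusted p = 0.0386) and not in slow cells (0.88 ± 0.28, adjusted p = 0.111). The fast call ended without C6 fast replicate 2 (0.175), C6SPGFP fast replicate 1 (0.187) or fast replicate 2 (0.0780), with no filter (0.0659) and with the fast groups alone (0.0655). Of the other auxiliary genes, Cacnb1 (59.6 to 87.4) and the muscle subunit Cacng1 (39.7 to 58.7) were at or above the median on all arrays and were not called, and Cacnb4 (1.43 to 10.4) was low on all arrays.

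None of the 8 tested alpha-1 probe sets was called, with changes from -0.65 to 0.77. Cacna1a, the P/Q-type channel of nerve terminals, had signals of 202 and 131 for C6slow, 209 and 158 for C6fast, 224 and 203 for C6SPGFPslow and 118 and 228 for C6SPGFPfast on rc_AI229031_s_at; fast and slow cells overlapped in both sets, and the slow arrays of C6SPGFP lay just above those of C6 (0.37, adjusted p = 0.567). Its 3 other probe sets lay at 2.2 to 33.2. The L-type genes Cacna1d (0.488 to 15.7) and Cacna1s (1.55 to 4.36) and the T-type gene Cacna1h (2.03 to 8.38) were low on all arrays, while the L-type Cacna1c (29.4 to 68.9 on M59786_at, under 25.3 on 2 others), the N-type Cacna1b (14.6 to 48.1), the R-type Cacna1e (15.0 to 49.5) and the T-type Cacna1g (39.9 to 87.0) passed the median on some or all arrays. No alpha-1 gene was thus called, and a difference from the auxiliary subunits Cacnb2, Cacnb3 and Cacna2d1 was not tested.

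**Figure D4:**
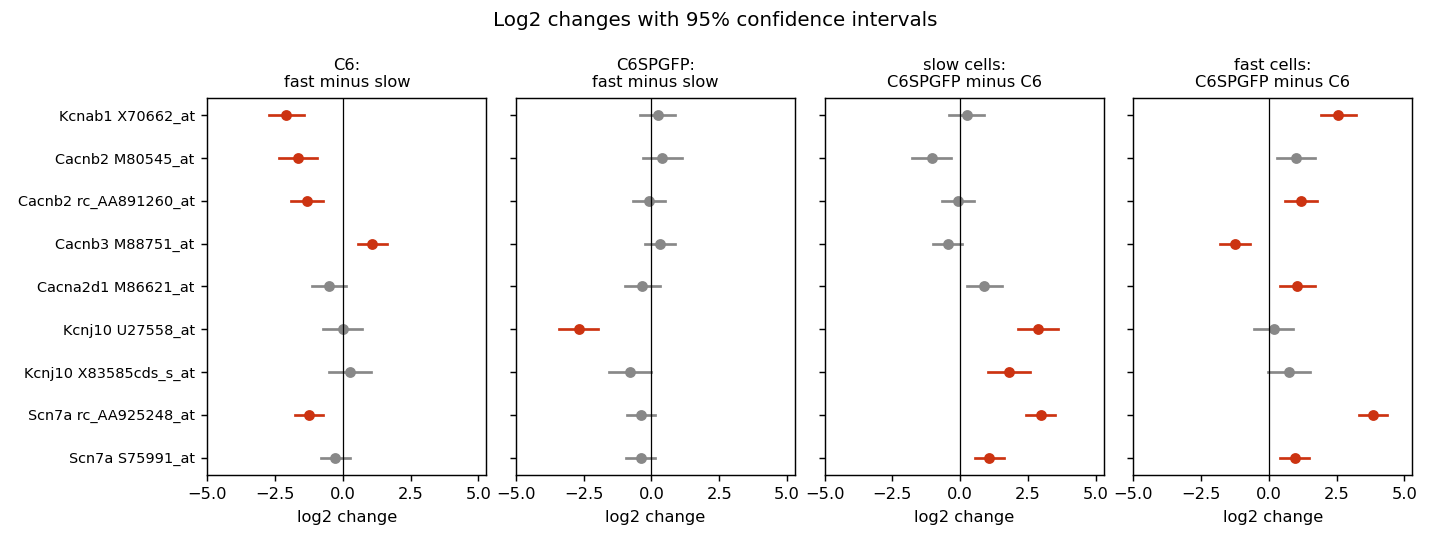
Log2 changes (points) with 95% confidence intervals (lines) of the 9 called probe sets in 4 comparisons; red marks an adjusted p under 0.05. In C6 the changes of Kcnab1 and Cacnb2 are negative and that of Cacnb3 positive, and for both probe sets of Scn7a the intervals between C6SPGFP and C6 lie above 0.

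Of the chloride channels and chloride-proton exchangers, Clcn3, an endosomal exchanger studied in glioma invasion, had signals of 378 and 285 for C6slow, 180 and 326 for C6fast, 318 and 346 for C6SPGFPslow and 328 and 317 for C6SPGFPfast. The change in C6 was -0.42 (adjusted p = 0.457) and C6 fast replicate 1 was the lowest array. Clcn4 (30.3 to 46.8) and the lysosomal Clcn7 (22.6 to 45.4) passed the median on some arrays, and the muscle channel Clcn1 (3.36 to 7.39) and the endosomal Clcn5 (2.36 to 23.4) were low on all arrays. None of the 4 tested probe sets was called (changes from -0.71 to 0.46). Of the TRP channels, Trpc1, a channel linked to store-operated calcium entry, had signals of 32 and 106 for C6slow, 48.2 and 106 for C6fast, 65.8 and 93.9 for C6SPGFPslow and 74.2 and 92.2 for C6SPGFPfast on AF061266_at, with overlap between all groups. Its other probe set was at 17.9 to 48.6. Trpc4 (4.94 to 20) and the capsaicin receptor Trpv1 (4.94 to 14.3) were low on all arrays, and no TRP probe set was called (changes from -0.05 to 0.69).

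Channels and channel partners outside these symbols were counted as a list of 82 genes, of which 51 were measured on 102 probe sets and 71 probe sets were tested. In C6, 6 were higher in fast cells (8.45%, against 2.69% of all probe sets) and 0 lower (against 3.96%): 3 of ankyrin 3 (Ank3), which anchors sodium channels, 2 of the scaffold Dlg1, which binds Kv1 and Kcnj channels, and 1 of the IP3 receptor Itpr1, a calcium release channel. Itpr1 rose on U38812_s_at from 8.24 ± 1.18 to 49.7 ± 3.22 (SD, n = 2; 1.83 ± 0.23 on the log2 scale, adjusted p = 0.00183), and Dlg1 (U14950_at) from 101 ± 6.33 to 242 ± 35.2 (1.20 ± 0.20, adjusted p = 0.00831). The Itpr1 probe sets J05510_at (0.58, adjusted p = 0.357) and M64698_s_at (0.62, adjusted p = 0.235) were tested and not called. Nor was Dlg1 rc_AA891297_at called (0.21, adjusted p = 0.670). The Ank3 probe sets AF065150_s_at (1.11, adjusted p = 0.131) and AF102552_s_at (0.91, adjusted p = 0.0860) were also tested and not called. In C6SPGFP 2 were higher in fast cells, 1 probe set each of Ank3 and of the pump regulator Fxyd1 (2.82%, against 1.06% of all), and 0 lower (against 0.329%). On the difference of the changes 2 were lower, of Dlg1 and Itpr1 (2.82%, against 1.11%), and 0 higher (against 2.71%).

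Between slow cells 1 probe set of the list, of Itpr3, was higher in C6SPGFP (1.41%, against 3.29% of all) and 3 were lower (4.23%, against 3.05%), 1 of Ank3 and 2 of Slc12a2, the sodium-potassium-chloride cotransporter that loads glioma cells with chloride. Between fast cells 5 were higher (7.04%, against 8.29%), of Atp2a2, Fxyd1 and P2rx4, and 13 lower (18.3%, against 7.3%), of Ank3, Atp2a3, Dlg1, Itpr1, P2rx5 and Slc12a2. Ank3, Dlg1 and Slc12a2 each gave more than 1 of the 13, and Atp2a2 and Fxyd1 each more than 1 of the 5. These shares count probe sets and not genes, so a gene with several probe sets weighs more. Slc12a2 (AF051561_s_at) was at 620 ± 98.9 for C6slow, 457 ± 124 for C6fast, 278 ± 5.97 for C6SPGFPslow and 264 ± 2.50 for C6SPGFPfast. The median log2 change of the 71 was 0.09 in C6, 0.0066 in C6SPGFP, -0.17 on the difference, 0.07 between slow and 0.01 between fast cells.

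Some markers of other cell types moved with some of these results. Each sum below takes, for each gene, the probe set of the highest mean signal, so the genes of high signal set most of it. The summed signal of 6 measured oligodendrocyte and Schwann genes of 8 was 804 to 1034 for C6slow, 198 to 234 for C6fast, 1874 to 1975 for C6SPGFPslow and 1215 to 1236 for C6SPGFPfast. In it Sox10 fell from 304 ± 89.8 to 1.56 ± 0.937 in C6 fast cells (limma adjusted p = 5.86e-06) and Cnp from 451 ± 91.6 to 89.0 ± 11.4 (adjusted p = 0.000138), while the myelin genes Mbp and Mobp were low on all arrays. These 2 were the only calls in C6 among its 8 tested probe sets, whose median log2 change was -0.31. Mag was not called in C6 (0.09, adjusted p = 0.871, on M22357_g_at and -0.61, adjusted p = 0.162, on X06554cds_s_at), nor was Mog (-0.47, adjusted p = 0.698). The sum of 8 measured neuron genes of 10 was 235 to 283, 207 to 227, 391 to 465 and 306 to 368, and that of 6 astrocyte genes of 6 was 557 to 600, 334 to 386, 245 to 258 and 215 to 247, with 4 of the 8 and 4 of the 6 low on all arrays. Glul gave most of the astrocyte sum (478, 263, 179 and 161 on rc_AI232783_s_at). Of 11 tested astrocyte probe sets, 2 of Glul were called lower in C6 fast cells. In C6SPGFP against C6, 3 were lower between slow and 2 between fast cells, of Glul and Gja1, and 0 were higher. The median log2 changes of the 11 were -0.50, -0.56 and -0.06. The oligodendrocyte and neuron sums and both Scn7a probe sets had the same order of groups by mean. In the oligodendrocyte sum this was the order of Cnp and Sox10, while of its 8 tested probe sets 1 was called between slow cells, with a median log2 change of -0.14. Among the 9 tested neuron probe sets, Gad1 gave the only call in C6, between slow cells and between fast cells. The median log2 changes of the 9 were -0.47, 0.41 and 0.04. Gad1 was at 24.7 for C6slow, 2.55 for C6fast, 112 for C6SPGFPslow and 118 for C6SPGFPfast, which is not the order of the neuron sum. The sum of 7 measured microglial and haematopoietic genes of 9 was 76.5 to 100.3 over all arrays, with 6 of the 7 low on all arrays. That of 6 measured endothelial and mural genes of 8 was 293 to 368. That of 6 measured muscle genes of 7 was 151 to 189 for C6slow and 76.8 to 121 for C6fast. It was 126 to 175 for C6SPGFPslow and 131 to 154 for C6SPGFPfast, so lowest on the C6 fast arrays. In the endothelial and in the muscle list, 3 of 6 genes were low on all arrays. Of 4 tested muscle probe sets 0 were called in C6. Tnnt2 was called between fast cells, higher in C6SPGFP (0.78, limma adjusted p = 0.0379). The part of these markers in the channel results was not tested.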

How the data were processed

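The authors deposited 1 table of linear probe set signals (intensity) for 8 arrays, per the labels of total RNA from C6 rat glioma cells; no label or header states the software, background correction or scaling. The trimmed mean was near 100 on 7 arrays and near 500.5 on 1. Low intensities limit the precision of fold changes, and replicates were 2 arrays per group.

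From these, signals were quantile normalised between arrays (limma 3.58.1, R 4.3.3), and log2 of signal plus 8 (the rounded 25th percentile) was fitted with 4 group means over all 8 arrays (lmFit, eBayes with a trend), two-sided, with Benjamini-Hochberg adjustment over the 6684 probe sets with a mean signal of at least 8. Low signal means under the 50th percentile of all normalised signals on each array. The fit had 4 residual and 4.49 prior degrees of freedom. The script was tested on simulated data. Symbols are those of GEO's platform annotation (7018 probe sets with 1 symbol, 308 with several, 1473 with none), brought to current symbols by Entrez identifier in a GRCr8 table (6994 matched; all 138 channel probe sets). Promoter sequences are RefSeq's.

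Values on every array are given for each channel probe set called in at least 1 comparison and for the 10 with the highest mean signal, and every other channel gene is named with its range. Members, lists and tests were chosen with earlier results of these data known. Alternatives were other scalings, pseudocounts of 1 and 32, other filters, no trend, fits of the compared groups alone, the replicate number as a block and each array left out.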

Additional observations from a re-analysis of the deposited data

Results flagged for a closer look

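The fast minus slow change differed between the C6 and C6SPGFP sets, by limma's test of the difference itself, for 3 channel probe sets. The difference (C6SPGFP minus C6, log2 of signal plus 8) was 2.33 for Kcnab1, which fell in C6 fast cells (-2.09) and was at 0.23 in C6SPGFP. It was 2.06 for the Cacnb2 probe set M80545_at, which fell in C6 (-1.66) and was at 0.40 in C6SPGFP. It was -2.69 for the Kcnj10 probe set U27558_at, which was at 0.00 in C6 and fell in C6SPGFP (-2.68). This Kcnj10 probe set passed the signal filter only through the C6SPGFP slow arrays. The adjusted p-values were 0.0146, 0.0403 and 0.013. Each gene's group means rest on 2 arrays, and the other Cacnb2 and Kcnj10 probe sets gave 1.25 and -1.05 with no call.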

How the results depend on the processing

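Every called change kept its sign under every alternative run, though that of Cacnb3 between fast cells came to -0.003 under the deposited scaling. Called channel probe sets numbered 5 in C6, 1 in C6SPGFP, 3 on the difference, 4 between slow and 6 between fast cells. Under the deposited scaling, which leaves C6SPGFP fast replicate 1 at about 5 times the scale of the others and so widens the spread, they were 0, 0, 0, 0 and 2 (Scn7a rc_AA925248_at and Kcnab1 between fast cells). With the filter at the 50th percentile, which tested 27 channel probe sets, they were 4 in C6, 0 in C6SPGFP, 1 on the difference, 2 between slow and 6 between fast cells. Both Kcnj10 probe sets and Cacnb2 M80545_at lay under this filter and were not tested, and every call still tested was kept. With the compared groups alone they were 2 in C6 and 2 between slow cells. Leaving out each array gave 1 to 6 in C6, 0 to 1 in C6SPGFP, 0 to 2 on the difference, 2 to 4 between slow and 2 to 6 between fast cells; the lone array of a group was then taken to vary like the others, and without C6SPGFP fast replicate 1 the common scale is lower and 64 were tested. Channel probe sets low on all arrays numbered 97, and 37 with the threshold at the 25th percentile. Deviations of same-numbered arrays from their group means correlated at r of -0.127 to 0.266 over pairs of groups, and no label says whether equal numbers share a culture or a day, so the main values use no pairing and a shared batch was not tested otherwise; the replicate block left the Kcnab1 change in C6 at -2.09, gave 6, 1, 2, 4 and 5 called channel probe sets in these comparisons, and ended the calls of Cacnb2 M80545_at on the difference (adjusted p = 0.0536) and of Cacna2d1 between fast cells (0.0523). Low signal limits the rest: 60 channel probe sets were not tested.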
